A study of Gallus gallus with 12 samples.

Results

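The change of gene expression with age in yellow plumage was described from the feather follicles of yellow chickens at 11 weeks of age, set against those of yellow chickens at 7 weeks. The RNA-seq libraries were 3 at each age, carrying the bird numbers 1, 3 and 4, and values of an age are given below in that order. A gene was taken into the comparison when its mean FPKM (fragments scaled by gene length and library size) was at least 1 over these 6 libraries, which held for 11316 of the 24353 genes listed. For each gene the log2(FPKM + 0.1) at 11 weeks less that at 7 weeks, here called the log2 difference, was tested with limma. A gene is said to have risen or fallen where the adjusted p (Benjamini-Hochberg) was at most 0.05 and the log2 difference at least 1 in size.

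The birds came from the third generation of a cross between Huiyang Bearded chickens and White Leghorns, and follicles were taken from the nape and cut near the base, so that a sample holds both epithelium and pulp. The series has 12 libraries in all, with 6 more from white-feathered birds of the same cross at the same ages. At 11 weeks the yellow birds had the Dominant white genotypes Ii, Ii and II, and the yellow birds of 7 weeks had the same genotypes in the same order. The white birds were II, II and II at 11 weeks, and II, Ii and II at 7 weeks. All were CC at the recessive white locus and carried the silver locus allele s on their single Z chromosome, as hens do. In each of the yellow libraries, between 19 and 25 of the 124 W chromosome genes listed had an FPKM of at least 1. The study counts each library as its own individual, while its methods describe plucking at successive ages, and neither says what a bird number shared by both ages marks. The p-values weigh the age difference against the spread of the 3 libraries within each age, for which limma shares information across genes.

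A feather grows from a follicle in which keratinocytes of the collar divide and differentiate into barbs and barbules around a pulp of fibroblasts, vessels and nerves. Melanocytes in the collar epithelium make melanin in melanosomes and pass these to keratinocytes, and yellow and red feather shades come from pheomelanin, whose synthesis draws on cysteine. Chickens replace their first feathers through successive moults, so that follicles of different ages can be making feathers of different kinds and stand at different points of the growth cycle. Bulk RNA cannot tell fewer cells of a type from less RNA per cell, and no value below separates them.

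Keratinocyte and pulp markers were high in every library, and melanocyte markers were present. The 8 keratinocyte markers summed to 1368 to 2062 FPKM at 11 weeks, against 1853 to 2117 FPKM at 7 weeks. The 8 pulp fibroblast markers summed to 1270 to 2988 FPKM at 11 weeks, against 1310 to 2192 FPKM at 7 weeks. The melanocyte markers, of which 7 of 8 are listed, summed to 128.5 to 188.3 FPKM at 11 weeks, against 196.3 to 368.9 FPKM at 7 weeks. Most of that sum was PMEL and MLANA, which fell, while KIT rose and SOX10, TYR and TYRP1 did not pass, as given below. Summed FPKM were between 640571 and 691597 per library at 11 weeks, against 700237 to 830214 at 7 weeks. Between 11380 and 11630 genes had an FPKM of at least 1 at 11 weeks, against 9906 to 10670 at 7 weeks. The files hold no read counts, so the depth behind a value is not known here.

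Far more genes rose than fell. Of the 11316 genes, 2266 rose with age (20.0%) and 293 fell (2.59%), and the median log2 difference of all genes was 0.34. By the adjusted p alone, without the fold threshold, 4134 genes were higher at 11 weeks (36.5%) and 1539 lower (13.6%). The libraries of 11 weeks lay above all those of 7 weeks for 46.0% of genes and below them for 17.9%. The excess of rising genes depended on the scaling: with quantile normalization, which gives every library the same distribution, 827 genes rose (7.31%) and 709 fell (6.27%), and the median log2 difference of all genes moved to -0.05. With median-of-ratios scaling 1433 rose and 939 fell, with a median of 0.01. Gene groups are therefore set against the median of all genes below. Without the 7-week library 3, which had the fewest genes of at least 1 FPKM, 1584 genes rose and 192 fell.

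The age change went along with the length of the gene locus and with the level of the gene. In the decile of genes with the shortest loci the median log2 difference was -0.45, with 8.66% rising and 13.7% falling. In the decile with the longest loci it was 0.95, with 42.6% rising and 0.177% falling. Over all genes Spearman's rho of log2 difference and locus span was 0.514, as a description, since genes of 1 library share its preparation and depth. By level, the median was 0.90 for genes with a mean of 1 to 2 FPKM and -0.72 for the 176 genes with a mean of at least 500 FPKM, of which 119 were in the 2 shortest deciles of span. White follicles had the same gradient, with medians of -0.63 and 1.05 in the shortest and longest deciles. Within an age, the libraries differed along it too. The median deviation of the 2 longest deciles less that of the 2 shortest was 0.388, 0.968 and 0.487 in the 11-week libraries, against -0.596, -0.873 and -0.43 in the 7-week libraries. The part of this gradient in the results that follow was not tested, and it cannot be told apart from age because every 11-week library lay above every 7-week library. Counts of called members are given for each gene group described below with the FPKM as deposited and after removal of a smooth trend of the log2 values on span and level, a correction chosen after the data were seen, under which 741 genes rose (6.55%) and 306 fell (2.70%). Many of the counts of 2 or fewer members in a group changed when a library was left out.

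**Figure D1:**
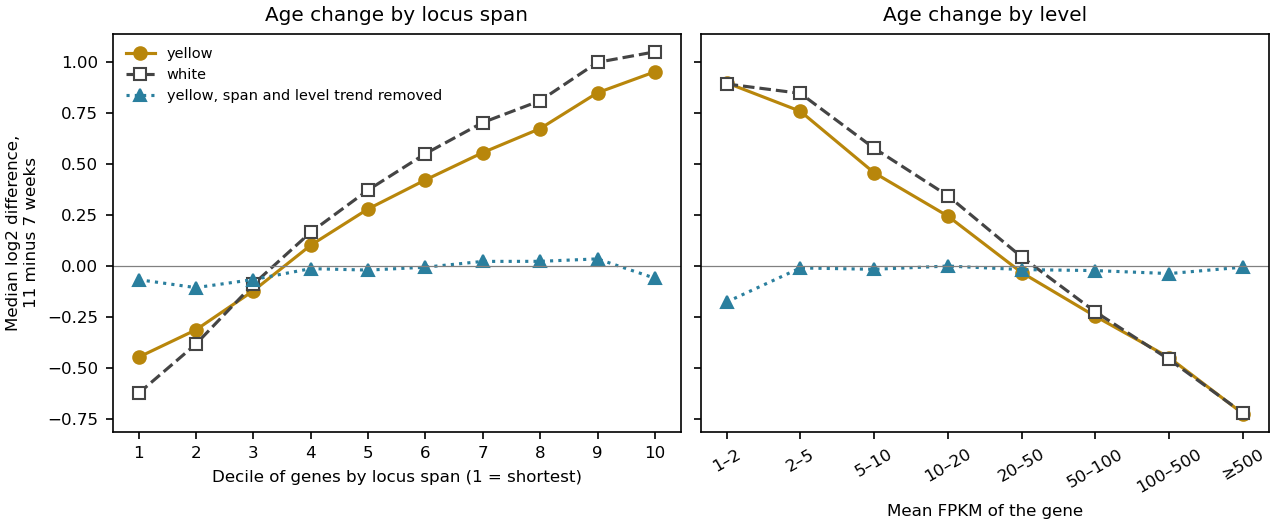
Median log2 difference, 11 minus 7 weeks, of genes in deciles of locus span (left) and in classes of mean FPKM (right) for yellow follicles, white follicles and yellow follicles with the span and level trend removed. Yellow medians run between -0.45 in the shortest and 0.95 in the longest decile, and between 0.90 for genes of 1 to 2 FPKM and -0.72 for those of at least 500 FPKM, with white follicles on nearly the same lines.

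Cytosolic ribosomal protein genes were lower at 11 weeks as a group. Of 65 tested, 10 fell and 0 rose, against 2.59% and 20.0% of all genes. By the adjusted p alone 60 were lower and 0 higher, against 13.6% and 36.5%. Their median log2 difference was -0.77, against 0.34 for all genes, and the whole list lay between -1.28 and -0.10. Ribosomal proteins took 10.61% to 10.84% of summed FPKM at 11 weeks, against 16.08% to 16.85% at 7 weeks. RPS26, a protein of the small subunit, had 1801, 1492 and 1605 FPKM at 11 weeks, against 3852, 4240.4 and 3501 FPKM at 7 weeks (log2 difference -1.24, standard error 0.13, adjusted p = 0.00287). RPLP1, of the large subunit's stalk, had 3864, 3253 and 3622 FPKM at 11 weeks, against 7110.4, 7681 and 7098 FPKM at 7 weeks (log2 difference -1.03, standard error 0.12, adjusted p = 0.00294), and its call was lost without the 11-week library 3 or the 7-week library 3, where the log2 difference was -0.96 at its smallest. The count of 10 falls came to 2 without the 7-week library 3. These genes are short and abundant, with 52 of them among the 176 genes of at least 500 FPKM, and with the span and level trend removed 0 rose, 0 fell and the median was -0.07. With quantile normalization 0 rose and 0 fell as well, with a median of -0.35.

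Nuclear genes for the respiratory chain and ATP synthase, and for the mitochondrial ribosome, were likewise lower at 11 weeks. Of 63 respiratory complex genes tested, 12 fell and 0 rose, against 2.59% and 20.0% of all genes, with a median of -0.71. By the adjusted p alone 53 were lower, against 13.6% of all genes. NDUFB7, a complex I subunit, had 92.02, 76.2 and 101 FPKM at 11 weeks, against 215, 243 and 212 FPKM at 7 weeks (log2 difference -1.32, standard error 0.13, adjusted p = 0.00287), and with the trend removed its log2 difference was -0.80. UQCR10 of complex III had 300.2, 290.1 and 272 FPKM at 11 weeks, against 665, 809 and 594 FPKM at 7 weeks (log2 difference -1.25, standard error 0.13, adjusted p = 0.00287), and COX6A1 of complex IV had 489.5, 439 and 491 FPKM at 11 weeks, against 1062, 1001 and 1002 FPKM at 7 weeks (log2 difference -1.11, standard error 0.09, adjusted p = 0.00287). The count of 12 came to 7 without the 11-week library 3, to 5 without the 7-week library 3 and to 19 without the 7-week library 4. Of 102 genes for translation factors and mitochondrial ribosomal proteins, 9 fell, each of them a mitochondrial ribosomal protein, and 0 rose. The 9 falls came to 16 without the 7-week library 4. The largest of those falls was MRPS12, with 60.04, 58.1 and 55.1 FPKM at 11 weeks, against 145, 195 and 117 FPKM at 7 weeks (log2 difference -1.36, standard error 0.18, adjusted p = 0.00324). EEF1A1, the elongation factor that brings tRNA to the ribosome, had 4308, 4086 and 4246 FPKM at 11 weeks, against 5006, 4681 and 5179.6 FPKM at 7 weeks, and its log2 difference of -0.23 did not pass (adjusted p = 0.11). With the trend removed the respiratory list had a median of -0.22 with 0 rises and 1 fall, and the translation list one of -0.19 with 1 rise and 0 falls. By the adjusted p alone in that setting, 19 of 63 respiratory genes were lower and 1 higher. For translation genes it was 37 of 102 lower and 13 higher, and for all 11316 genes 1600 lower and 1782 higher.

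Genes of the mitochondrial genome itself went the other way. They took 17.45% to 19.68% of summed FPKM at 11 weeks, against 8.176% to 10.15% at 7 weeks. This list was added after its values were seen. The genes tested summed to 111796 to 135191 FPKM at 11 weeks, against 57248 to 84252 FPKM at 7 weeks. ATP8, whose own value is uncertain as described below, held the larger part of the sum at 11 weeks. It had 62473 to 78205 FPKM then, against 26227 to 37875 FPKM at 7 weeks. Of the 15 tested, 4 rose and 0 fell, against 20.0% and 2.59% of all genes, with a median of 0.78 against 0.34. By the adjusted p alone 9 were higher and 0 lower, against 36.5% and 13.6% of all genes. ND4L, a complex I subunit encoded on the mitochondrial genome, had 3846, 3508 and 3301 FPKM at 11 weeks, against 708, 692 and 737 FPKM at 7 weeks (log2 difference 2.32, standard error 0.10, adjusted p = 0.000188). ND5 of the same complex had 1894, 1494 and 1722 FPKM at 11 weeks, against 744, 917 and 688 FPKM at 7 weeks (log2 difference 1.13, standard error 0.15, adjusted p = 0.00321). ATP8 of the ATP synthase, the most abundant gene listed, had 78205, 62473 and 74252 FPKM at 11 weeks, against 30161, 37875 and 26227 FPKM at 7 weeks (log2 difference 1.20, standard error 0.21, adjusted p = 0.00545). With quantile normalization its log2 difference was 0, because it then ranks first in every library. COX3 had 9072, 8517 and 9000.1 FPKM at 11 weeks, against 5522, 8205 and 5323 FPKM at 7 weeks, with overlap between the ages only narrowly absent, and did not pass (adjusted p = 0.0568). ND4L and ATP8 each overlap a neighbouring gene on the mitochondrial genome, so their own values are uncertain. These genes are short and abundant, so that with the trend removed the median was 1.78 and 13 of 15 rose, against 6.55% of all genes.

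**Figure D2:**
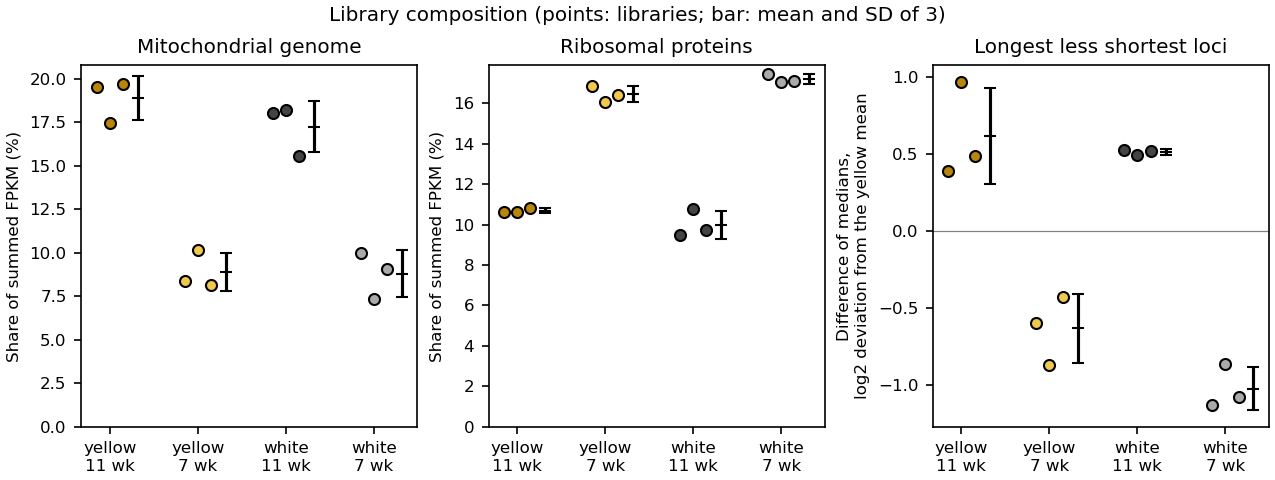
Share of summed FPKM (%) from the mitochondrial genome and from ribosomal protein genes, and the median log2 deviation of the 2 longest less the 2 shortest deciles of locus span, by library; points are libraries and bars the mean and SD of 3. At 11 weeks yellow libraries lie between 17.45% and 19.68% for the mitochondrial genome and between 10.61% and 10.84% for ribosomal proteins, against 8.176% to 10.15% and 16.08% to 16.85% at 7 weeks, and white libraries lie close to these values. The larger part of the mitochondrial share of yellow libraries at 11 weeks is the gene ATP8.

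**Figure D3:**
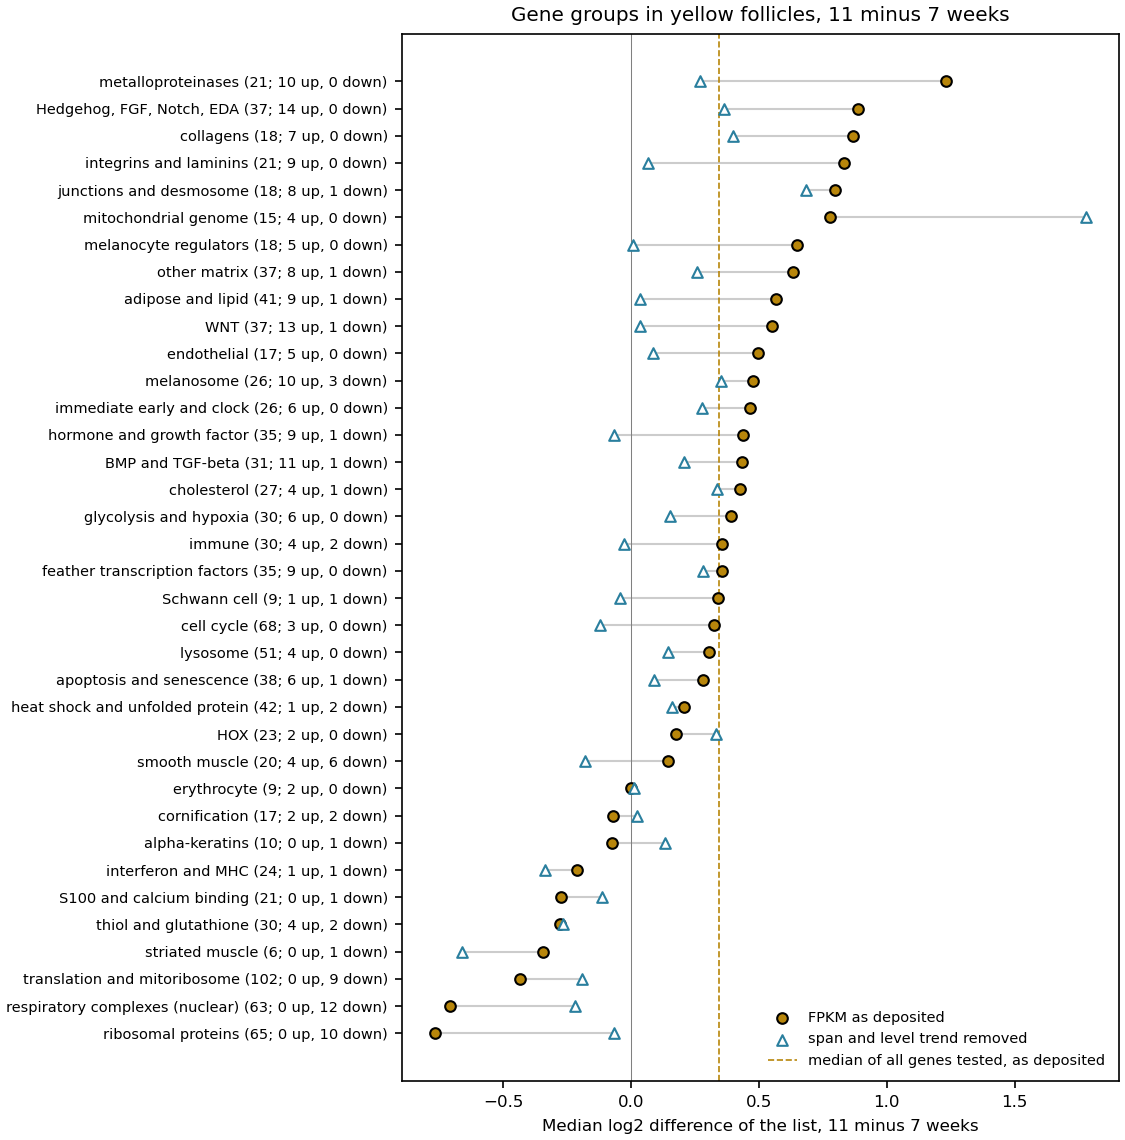
Median log2 difference, 11 minus 7 weeks, of the gene groups other than feather keratins in yellow follicles, with the FPKM as deposited (circles) and with the span and level trend removed (triangles); the dashed line is the median of all genes as deposited, 0.34, and counts after each name are genes tested, rising and falling. Ribosomal proteins and respiratory complexes lie lowest as deposited, and of the groups plotted the mitochondrial genome lies farthest right once the trend is removed.

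Several cell junction genes rose. Of 18 tested genes for desmosomes, gap junctions and tight junctions, 8 rose and 1 fell, against 20.0% and 2.59% of all genes, with a median of 0.80. With the trend removed 6 rose and 1 fell, against 6.55% and 2.70%, with a median of 0.68. GJB2, the gap junction protein connexin 26, had 18.7, 24.3 and 23.2 FPKM at 11 weeks, against 5.40, 1.67 and 5.01 FPKM at 7 weeks (log2 difference 2.58, standard error 0.42, adjusted p = 0.00472). PKP1, a desmosome plaque protein of keratinocytes, had 158, 267 and 101 FPKM at 11 weeks, against 42.9, 19.3 and 51.2 FPKM at 7 weeks (log2 difference 2.21, standard error 0.45, adjusted p = 0.00812). For both genes the lowest 11-week library lay well above the highest 7-week library, and the 7-week library 3 was the lowest of all. GJA1, the gap junction protein connexin 43 and the most abundant gene of the list, had 1652, 1912 and 1959 FPKM at 11 weeks, against 1109.7, 927 and 1209.9 FPKM at 7 weeks, a log2 difference of 0.77 that passed the adjusted p (0.00547) and not the fold threshold. GJB1, a connexin known from Schwann cells and glands, was the gene that fell, with 4.49, 2.36 and 3.02 FPKM at 11 weeks, against 8.62, 7.62 and 8.43 FPKM at 7 weeks (log2 difference -1.34, standard error 0.24, adjusted p = 0.00588).

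The lists of structural proteins of the epithelium were small, and so were their counts of calls. Of all genes 20.0% rose and 2.59% fell, and with the trend removed 6.55% rose and 2.70% fell. The alpha-keratins gave few calls, while the share of cornification genes that fell was above that of all genes. Of 10 alpha-keratins tested, which form the intermediate filaments of keratinocytes, 0 rose and 1 fell, with a median of -0.08, and with the trend removed 0 rose and 0 fell. KRT5, the keratin of dividing basal cells, had 846, 714 and 577 FPKM at 11 weeks, against 751, 926 and 720.2 FPKM at 7 weeks (log2 difference -0.17, adjusted p = 0.407). Its partner KRT14 fell to 151, 78.2 and 120.3 FPKM at 11 weeks, against 258, 231 and 214 FPKM at 7 weeks (log2 difference -1.05, standard error 0.23, adjusted p = 0.00998), a call lost without the 11-week library 3 or the 7-week library 1, where the log2 difference came to -0.79 at its smallest. Of 17 genes tested from the epidermal differentiation complex and cornification, 2 rose and 2 fell, with a median of -0.07, and with the trend removed 2 rose and 1 fell. EDQM3, one of that complex and among the 5 genes with the largest share of all FPKM, had 12011, 11963 and 8431 FPKM at 11 weeks, against 24266, 28018 and 20582 FPKM at 7 weeks (log2 difference -1.18, standard error 0.20, adjusted p = 0.00545), and EDQM1 had 388, 398 and 272 FPKM at 11 weeks, against 704, 954 and 751 FPKM at 7 weeks (log2 difference -1.19, standard error 0.18, adjusted p = 0.00414). With the trend removed EDQM3 was at -0.16 and EDQM1 at -0.56, and neither passed.

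Feather keratins, the corneous beta proteins that make up most of the feather, differed widely between libraries of 1 age. Of the 8 genes with feather keratin symbols that were tested, 0 rose and 0 fell, also with the trend removed. This count leaves out the loci without a symbol in the keratin-rich stretch of chromosome 25, many of which had far higher FPKM. Some of those fell, such as ENSGALG00000050271 (log2 difference -1.53, adjusted p = 0.00535) and ENSGALG00000033213 (log2 difference -1.55, adjusted p = 0.00331). Others were listed at 0 at 7 weeks and high at 11 weeks, as given under other observations. F-KER, on chromosome 25 from 2171952 to 2174353 of GRCg6a, had 226, 230.3 and 0 FPKM at 11 weeks, against 28.7, 13.3 and 9.11 FPKM at 7 weeks (log2 difference 0.19, adjusted p = 0.96). It was high in the 11-week libraries 1 and 3 and listed at 0 in library 4, with the 7-week libraries between them. FKCOSL had 0, 0 and 252 FPKM at 11 weeks, against 0, 0 and 0.660 FPKM at 7 weeks, so that it was high in the 11-week library 4 alone. The 9 feather keratin loci of chromosome 27 together had 2.532, 0.6378 and 452.2 FPKM at 11 weeks, against 2.404, 0.4994 and 1.317 FPKM at 7 weeks. A value of 0 can be a failed estimate among such near-identical genes, between which reads cannot be assigned with certainty.

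Of 35 tested transcription factors known from skin and feather buds, 9 rose and 0 fell, against 20.0% of all genes rising, and with the trend removed 4 rose and 2 fell. The median of 0.35 was at that of all genes. TP63, which keeps basal keratinocytes in a stratified epithelium, had 47.95, 66.6 and 43.9 FPKM at 11 weeks, against 14.1, 6.50 and 19.6 FPKM at 7 weeks (log2 difference 2.08, standard error 0.39, adjusted p = 0.00644). ALX4, a homeodomain factor of skin mesenchyme, had 5.62, 6.37 and 6.81 FPKM at 11 weeks, against 1.005, 0.503 and 1.65 FPKM at 7 weeks (log2 difference 2.59, standard error 0.39, adjusted p = 0.00387). DLX3, known for its part in epidermal differentiation, had 134, 108 and 136 FPKM at 11 weeks, against 138, 107 and 133 FPKM at 7 weeks (log2 difference 0.00, adjusted p = 0.989), with the ages fully overlapping. The count of 9 came to 5 without the 7-week library 3. Cell cycle genes had a median of 0.32, near that of all genes, and a smaller share of rises. Of 68 tested, 3 rose and 0 fell, against 20.0% and 2.59% of all genes, and with the trend removed 0 rose and 0 fell. ANLN, which acts in the cleavage of dividing cells, rose (log2 difference 1.69, standard error 0.34, adjusted p = 0.00779), while PCNA, the replication clamp, had 87.3, 79.5 and 77.3 FPKM at 11 weeks, against 97.3, 91.1 and 109 FPKM at 7 weeks and did not pass (adjusted p = 0.0571). The cell cycle rises came to 1 without the 11-week library 3, the 7-week library 1 or the 7-week library 3, and to 5 without the 11-week library 4 or the 7-week library 4.

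Signalling genes of feather patterning included many that rose, and with the trend removed each list held both rises and falls. Of 37 WNT pathway genes tested, 13 rose and 1 fell, against 20.0% and 2.59% of all genes. With the trend removed 6 rose and 3 fell, against 6.55% and 2.70%. AXIN2, a target and feedback inhibitor of WNT signalling, had 25.4, 29.2 and 30.6 FPKM at 11 weeks, against 9.80, 5.06 and 9.62 FPKM at 7 weeks (log2 difference 1.84, standard error 0.26, adjusted p = 0.00344). WNT16, a ligand, had 6.69, 8.87 and 7.90 FPKM at 11 weeks, against 2.48, 1.36 and 2.08 FPKM at 7 weeks (log2 difference 1.97, standard error 0.25, adjusted p = 0.00317), and WNT5B, the most abundant ligand of the list, had 127, 104 and 129 FPKM at 11 weeks, against 143, 99.03 and 145 FPKM at 7 weeks and did not pass (adjusted p = 0.692). Of 37 tested genes of the Hedgehog, FGF, Notch and ectodysplasin pathways, 14 rose and 0 fell, with a median of 0.89. With the trend removed 7 rose and 3 fell, against the same shares of all genes as for WNT. EDA2R, a receptor of the ectodysplasin family, had 3.72, 5.66 and 4.69 FPKM at 11 weeks, against 0.654, 0.339 and 0.815 FPKM at 7 weeks (log2 difference 2.81, standard error 0.36, adjusted p = 0.00308), and EDAR, the ectodysplasin receptor of feather placodes, had 3.84, 6.59 and 4.48 FPKM at 11 weeks, against 1.21, 0.625 and 1.83 FPKM at 7 weeks (log2 difference 2.01, standard error 0.40, adjusted p = 0.00778). The Notch ligands JAG1 and JAG2 had log2 differences of 2.08 and 1.93 (adjusted p = 0.00658 and 0.00776).

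The rises among BMP and TGF-beta pathway genes rested in part on single libraries. Of 31 tested, 11 rose and 1 fell, against 20.0% and 2.59% of all genes, with a median of 0.43 against 0.34 for all genes. The 11 rises came to 7 without the 11-week library 4, to 6 without the 7-week library 1 and to 4 without the 7-week library 3. With the trend removed they came to 1, where 6.55% of all genes rose. BMPR1A, a BMP receptor, had 3.82, 11.9 and 4.13 FPKM at 11 weeks, against 1.47, 0.900 and 1.70 FPKM at 7 weeks (log2 difference 2.04, standard error 0.47, adjusted p = 0.0117), so that the 11-week library 3 was far above the other libraries. GREM1, a secreted BMP antagonist and the gene that still rose with the trend removed, had 8.77, 10.6 and 13.1 FPKM at 11 weeks, against 2.43, 1.17 and 6.10 FPKM at 7 weeks (log2 difference 1.99, standard error 0.53, adjusted p = 0.0193), a call lost without the 11-week library 3, the 11-week library 4 or the 7-week library 1 (adjusted p up to 0.0642). Of 23 HOX genes, 2 rose and 0 fell, against 20.0% and 2.59% of all genes, and with the trend removed 1 rose and 0 fell. The 2 rises came to 1 without the 11-week library 4 or the 7-week library 3. HOXD3 had 44.7, 35.6 and 44.2 FPKM at 11 weeks, against 19.6, 8.49 and 12.9 FPKM at 7 weeks (log2 difference 1.67, standard error 0.29, adjusted p = 0.00534), and HOXB4, the most abundant of them, had 57.7, 102 and 94.9 FPKM at 11 weeks, against 85.5, 69.7 and 103 FPKM at 7 weeks and did not pass (adjusted p = 0.891).

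Several collagens rose, and the most abundant one did not. Of 18 collagens tested, 7 rose and 0 fell, against 20.0% and 2.59% of all genes, with a median of 0.87. With the trend removed 4 rose, against 6.55% of all genes. COL4A2, a chain of basement membrane collagen IV, had 19.2, 14.7 and 27.1 FPKM at 11 weeks, against 5.58, 3.10 and 8.10 FPKM at 7 weeks (log2 difference 1.90, standard error 0.37, adjusted p = 0.00717). COL26A1 had 17.9, 33.5 and 26.4 FPKM at 11 weeks, against 2.48, 0.555 and 4.19 FPKM at 7 weeks (log2 difference 3.70, standard error 0.65, adjusted p = 0.00556), the largest change of any collagen. COL1A1, the main chain of fibrillar collagen I, had 956, 454 and 1336 FPKM at 11 weeks, against 868, 806 and 1226 FPKM at 7 weeks and did not pass (log2 difference -0.19, adjusted p = 0.701), with complete overlap of the ages. Of 37 other matrix genes, 8 rose and 1 fell, close to the 20.0% and 2.59% of all genes, and with the trend removed 4 rose and 1 fell. Among the 8 were the small proteoglycan OGN, with 41.5, 47.9 and 62.4 FPKM at 11 weeks, against 12.6, 8.77 and 18.5 FPKM at 7 weeks (log2 difference 1.97, standard error 0.28, adjusted p = 0.00345), and the basement membrane linker NID1, with 49.3, 71.4 and 72.7 FPKM at 11 weeks, against 17.5, 9.89 and 29.02 FPKM at 7 weeks (log2 difference 1.88, standard error 0.37, adjusted p = 0.00752). SPARC, the most abundant of these, had 1166, 947 and 1461 FPKM at 11 weeks, against 1173, 1022 and 1294 FPKM at 7 weeks (log2 difference 0.02, adjusted p = 0.934).

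Integrins, laminins and metalloproteinases had long loci and low levels, and fewer of them rose with the trend removed. That held for all genes too, of which 2266 rose as deposited and 741 with the trend removed. Of 21 integrins and laminins, 9 rose and 0 fell, against 20.0% and 2.59% of all genes. With the trend removed 3 rose, against 6.55% of all genes, with a median of 0.06. ITGA6, a partner of the hemidesmosome integrin that anchors basal cells, had 6.79, 15.8 and 7.80 FPKM at 11 weeks, against 2.17, 1.11 and 2.55 FPKM at 7 weeks (log2 difference 2.30, standard error 0.41, adjusted p = 0.00571). LAMB3, a chain of the laminin it binds, had 6.70, 6.71 and 5.46 FPKM at 11 weeks, against 1.62, 1.18 and 2.23 FPKM at 7 weeks (log2 difference 1.88, standard error 0.26, adjusted p = 0.00332). Of 21 tested metalloproteinases and inhibitors, 10 rose and 0 fell, with a median of 1.23. With the trend removed 2 rose, against 6.55% of all genes, with a median of 0.27. TIMP3, a matrix-bound inhibitor and one of those 2, had 28.4, 48.6 and 33.3 FPKM at 11 weeks, against 8.71, 9.83 and 14.6 FPKM at 7 weeks (log2 difference 1.72, standard error 0.26, adjusted p = 0.00387). MMP15, the most abundant membrane protease of the list, had 87.8, 74.5 and 94.7 FPKM at 11 weeks, against 120.2, 112 and 125 FPKM at 7 weeks and did not pass the fold threshold (log2 difference -0.48).

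Among pigment genes, PMEL and MLANA of the melanosome fell, while several ligands and receptors of melanocytes rose. PMEL, which builds the fibrils on which melanin is laid down, had 66.5, 80.8 and 51.5 FPKM at 11 weeks, against 126, 195 and 95.3 FPKM at 7 weeks (log2 difference -1.03, standard error 0.28, adjusted p = 0.0202). MLANA, a membrane protein of early melanosomes, had 37.3, 46.6 and 33.8 FPKM at 11 weeks, against 66.8, 117 and 62.5 FPKM at 7 weeks (log2 difference -1.02, standard error 0.25, adjusted p = 0.0149). The 7-week library 3 was the highest of all for both genes. The call of PMEL was lost without the 11-week library 4, the 7-week library 1 or the 7-week library 3 (adjusted p up to 0.0634), and that of MLANA without the 11-week library 1, the 11-week library 4 or the 7-week library 3 (log2 difference -0.73 at its smallest). With the trend removed their log2 differences were -0.54 and -0.68, and neither passed, and with quantile normalization they were -0.81 and -0.87, short of the fold threshold. TYR, the rate-limiting enzyme of melanin synthesis, had 18.3, 22.8 and 18.7 FPKM at 11 weeks, against 23.4, 29.01 and 20.5 FPKM at 7 weeks (log2 difference -0.27, adjusted p = 0.188). TYRP1, a related enzyme of eumelanin synthesis, had 13.2, 20.9 and 9.97 FPKM at 11 weeks, against 22.9, 17.2 and 11.2 FPKM at 7 weeks (log2 difference -0.23, adjusted p = 0.595). Both overlapped between the ages. DCT, the third member of that family, was below the filter, at 0.036, 0.01801 and 0.06294 FPKM at 11 weeks, against 0.1898, 0.01772 and 0.0288 FPKM at 7 weeks.

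Among the signals, KITLG, the ligand of the melanocyte receptor KIT, had 6.71, 16.6 and 10.6 FPKM at 11 weeks, against 1.77, 1.44 and 2.18 FPKM at 7 weeks (log2 difference 2.51, standard error 0.34, adjusted p = 0.00331), and KIT had 6.59, 10.2 and 9.01 FPKM at 11 weeks, against 3.63, 4.33 and 2.91 FPKM at 7 weeks (log2 difference 1.22, standard error 0.23, adjusted p = 0.00641). Both groups of libraries were apart for each gene. EDNRB2, the endothelin receptor of avian melanocytes, had 14.9, 25.8 and 13.6 FPKM at 11 weeks, against 7.54, 5.58 and 5.62 FPKM at 7 weeks (log2 difference 1.47, standard error 0.26, adjusted p = 0.00577), and its ligand EDN3 had 20.6, 21.98 and 9.15 FPKM at 11 weeks, against 4.29, 6.06 and 7.58 FPKM at 7 weeks (log2 difference 1.45, standard error 0.37, adjusted p = 0.0163), a call lost without the 11-week library 1, the 11-week library 3 or the 7-week library 1 (adjusted p up to 0.0568). With the trend removed KITLG and EDNRB2 kept their calls, at 1.56 and 1.17. KIT, at 0.35, and EDN3, at 1.09, did not. ASIP, the antagonist of the melanocortin receptor that turns melanocytes to pheomelanin, had 28.5, 4.83 and 16.3 FPKM at 11 weeks, against 3.10, 1.23 and 6.43 FPKM at 7 weeks, with overlap between the 11-week library 3 and the 7-week library 4 (log2 difference 2.13, adjusted p = 0.0519). The receptor MC1R had 5.44, 5.56 and 2.997 FPKM at 11 weeks, against 8.85, 12.8 and 3.31 FPKM at 7 weeks and POMC, the precursor of its peptide ligands, 2.68, 5.64 and 20.4 FPKM at 11 weeks, against 7.07, 24.7 and 16.3 FPKM at 7 weeks; neither passed (adjusted p = 0.286 and 0.272). Of 18 tested melanocyte regulators, 5 rose and 0 fell, against 20.0% and 2.59% of all genes. With the trend removed 2 rose and 1 fell, against 6.55% and 2.70%. The 5 rises came to 3 without the 7-week library 1 and to 8 without the 7-week library 4.

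Of 26 melanosome genes tested, 10 rose and 3 fell, against 20.0% and 2.59% of all genes. Beside PMEL and MLANA, the tetraspanin gene TSPAN10 fell, with 1.44, 0.571 and 0.906 FPKM at 11 weeks, against 3.05, 4.23 and 1.87 FPKM at 7 weeks (log2 difference -1.56, standard error 0.43, adjusted p = 0.0219), a call lost without the 11-week library 4, the 7-week library 1 or the 7-week library 3 (adjusted p up to 0.0838). RAB38, a small GTPase that carries enzymes to the melanosome, had 2.67, 6.10 and 4.14 FPKM at 11 weeks, against 0.900, 1.22 and 1.69 FPKM at 7 weeks (log2 difference 1.65, standard error 0.37, adjusted p = 0.0107). SYTL2, an effector of RAB27A in peripheral melanosome transport, had 2.71, 2.50 and 2.07 FPKM at 11 weeks, against 0.779, 0.597 and 0.572 FPKM at 7 weeks (log2 difference 1.76, standard error 0.30, adjusted p = 0.00547). RAB38 and SYTL2 were at a few FPKM. Neither passed with the trend removed, at 0.70 and 0.41, or with quantile normalization, at 0.83 and 0.81. With the trend removed 1 of the list rose and 1 fell, against 6.55% and 2.70% of all genes. GPNMB, a relative of PMEL and the list's second most abundant gene, had 117, 111 and 167 FPKM at 11 weeks, against 78.2, 85.1 and 90.3 FPKM at 7 weeks and passed the adjusted p but not the fold threshold (log2 difference 0.61, adjusted p = 0.0204). The melanosome falls came to 0 without the 7-week library 3 and to 1 without the 11-week library 4 or the 7-week library 1. Of the 6 melanocyte markers tested, 1 rose and 2 fell, against 20.0% and 2.59% of all genes. SOX10, the transcription factor that marks the lineage, had 5.99, 6.85 and 5.41 FPKM at 11 weeks, against 4.01, 6.43 and 3.87 FPKM at 7 weeks and did not pass (adjusted p = 0.205). The part of melanocyte number in the pigment results was not tested.

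Of 30 thiol and glutathione genes tested, 4 rose and 2 fell, against 20.0% and 2.59% of all genes, and with the trend removed 4 rose and 0 fell. SLC7A11, the cystine transporter that feeds pheomelanin synthesis, had 4.54, 6.33 and 6.77 FPKM at 11 weeks, against 0.535, 0.502 and 1.26 FPKM at 7 weeks (log2 difference 2.87, standard error 0.38, adjusted p = 0.00322). GCLC, the catalytic subunit of the first enzyme of glutathione synthesis, had 10.2, 10.3 and 10.3 FPKM at 11 weeks, against 3.10, 1.78 and 3.54 FPKM at 7 weeks (log2 difference 1.89, standard error 0.26, adjusted p = 0.00331). TXNRD1, thioredoxin reductase, had 4.71, 6.60 and 12.1 FPKM at 11 weeks, against 0.965, 0.427 and 1.57 FPKM at 7 weeks (log2 difference 2.90, standard error 0.50, adjusted p = 0.00544), and GGT5, which splits extracellular glutathione conjugates, had 16.4, 14.6 and 22.9 FPKM at 11 weeks, against 4.13, 2.93 and 8.67 FPKM at 7 weeks (log2 difference 1.88, standard error 0.39, adjusted p = 0.00834). In all 4 genes the lowest 11-week library was above the highest 7-week library, every omission of a library kept the call, and so did the removal of the trend. GPX1, a glutathione peroxidase, had 309.9, 326 and 261 FPKM at 11 weeks, against 720.0, 996 and 816 FPKM at 7 weeks (log2 difference -1.49, standard error 0.15, adjusted p = 0.00287), and GPX4, which repairs lipid peroxides, had 72.6, 59.5 and 63.1 FPKM at 11 weeks, against 127, 142 and 125 FPKM at 7 weeks (log2 difference -1.02, standard error 0.11, adjusted p = 0.00287). With the trend removed these were at -0.65 and -0.31, and GPX4 lost its call without the 7-week library 3. TXN, the substrate of TXNRD1, had 1063, 1012 and 668 FPKM at 11 weeks, against 1904, 2014 and 1423 FPKM at 7 weeks and did not pass the fold threshold (log2 difference -0.97). The median of the list, -0.28, was below that of all genes. The 2 falls came to 6 without the 11-week library 1, to 4 without the 7-week library 1, to 1 without the 7-week library 3 and to 5 without the 7-week library 4.

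**Figure D4:**
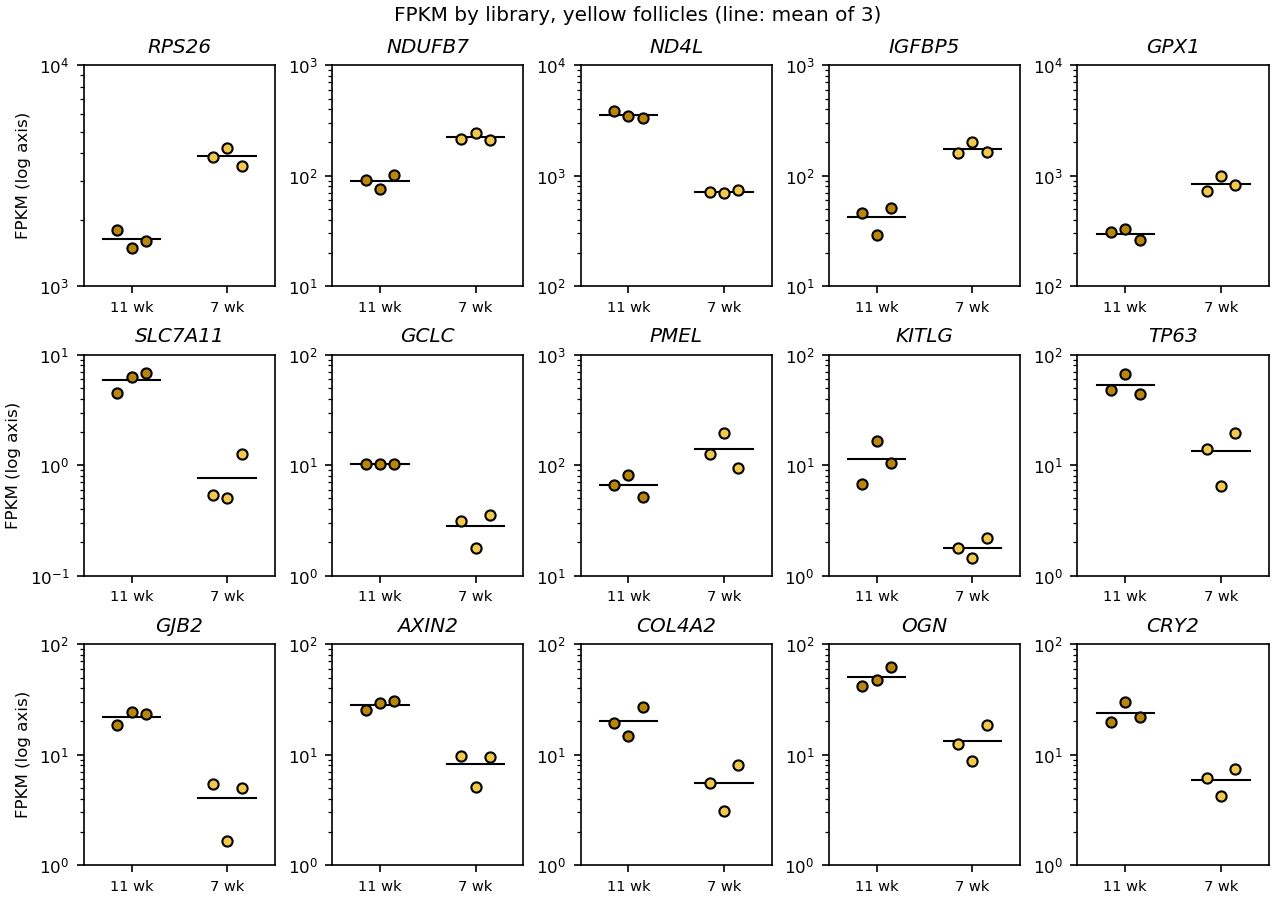
FPKM of 15 genes in each yellow library on log axes, with 11 weeks left of 7 weeks; points are libraries 1, 3 and 4 and lines the mean of 3. The ages are apart in every panel, with RPS26, NDUFB7, IGFBP5, GPX1 and PMEL lower at 11 weeks and the other 10 genes higher.

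Of 20 smooth muscle genes tested, 6 fell and 4 rose, against 2.59% and 20.0% of all genes. With the trend removed 5 fell and 2 rose, against 2.70% and 6.55%. TAGLN, an actin-binding protein, had 10.6, 11.3 and 23.7 FPKM at 11 weeks, against 47.9, 86.8 and 37.2 FPKM at 7 weeks (log2 difference -1.92, standard error 0.40, adjusted p = 0.00861), and ACTG2, a smooth muscle actin, had 6.15, 6.36 and 13.1 FPKM at 11 weeks, against 22.1, 44.9 and 18.7 FPKM at 7 weeks (log2 difference -1.71, standard error 0.40, adjusted p = 0.013). DES, the intermediate filament desmin, had 5.07, 4.57 and 10.9 FPKM at 11 weeks, against 15.7, 26.4 and 12.02 FPKM at 7 weeks (log2 difference -1.42, standard error 0.40, adjusted p = 0.0235), and CNN1, calponin, had 1.49, 1.27 and 2.33 FPKM at 11 weeks, against 4.28, 7.91 and 2.59 FPKM at 7 weeks (log2 difference -1.39, standard error 0.43, adjusted p = 0.0318). In all 4 genes the 11-week library 4 was the highest of its age and the 7-week library 3 the highest of all. The calls of DES and CNN1 were lost without the 11-week library 1, the 11-week library 3, the 7-week library 1 or the 7-week library 3 (adjusted p up to 0.0758 and 0.0879). ACTA2, the smooth muscle actin also made by myofibroblasts, had 32.3, 26.8 and 62.4 FPKM at 11 weeks, against 32.2, 30.5 and 38.3 FPKM at 7 weeks and did not pass (adjusted p = 0.642). MYH11, the smooth muscle myosin heavy chain, had 0.890, 2.56 and 2.03 FPKM at 11 weeks, against 1.39, 1.54 and 0.872 FPKM at 7 weeks and did not pass either (log2 difference 0.41, adjusted p = 0.468). PDGFRB, a receptor of pericytes and fibroblasts, had 4.49, 7.76 and 6.37 FPKM at 11 weeks, against 0.599, 0.226 and 1.20 FPKM at 7 weeks (log2 difference 3.21, standard error 0.51, adjusted p = 0.00447), and CALD1, caldesmon, had 37.1, 38.7 and 51.8 FPKM at 11 weeks, against 11.95, 6.17 and 19.2 FPKM at 7 weeks (log2 difference 1.89, standard error 0.38, adjusted p = 0.00797).

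The 6 smooth muscle markers, TAGLN, ACTG2, DES, CNN1, ACTA2 and MYH11, summed to 52.93 to 114.5 FPKM at 11 weeks, against 109.7 to 198 FPKM at 7 weeks. The part of smooth muscle cell number in these falls was not tested. The 6 falls came to 3 without the 11-week library 3 and to 2 without the 7-week library 3. In white follicles TAGLN had 88.8, 16.8 and 64.6 FPKM at 11 weeks, against 56.2, 89.9 and 48.1 FPKM at 7 weeks, and its log2 difference was -0.44. That of ACTG2 in white follicles was -0.06 and that of DES 0.22. The difference between the age changes, yellow minus white, was -1.47 for TAGLN (unadjusted p = 0.0956, adjusted p = 0.68) and -1.65 for ACTG2 (unadjusted p = 0.0644, adjusted p = 0.669), so a difference between the colours was not detectable with these libraries.

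**Figure D5:**
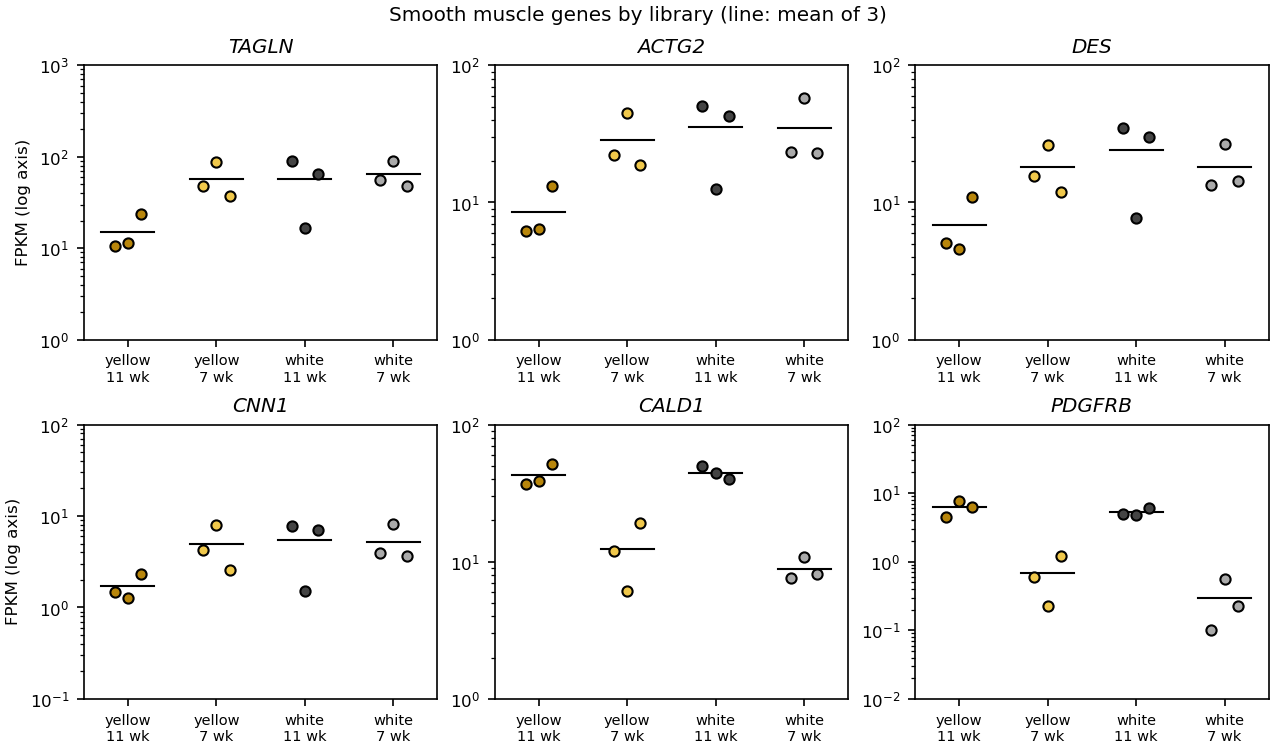
FPKM of 6 smooth muscle genes in each library on log axes, yellow follicles of 11 and 7 weeks followed by white follicles of 11 and 7 weeks; points are libraries and lines the mean of 3. TAGLN, ACTG2, DES and CNN1 are lower at 11 than at 7 weeks in yellow follicles and spread widely in white ones, whereas CALD1 and PDGFRB are higher at 11 weeks in both.

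Of 17 endothelial genes, 5 rose and 0 fell, against 20.0% of all genes rising, with a median of 0.50, and with the trend removed 0 rose and 0 fell. CDH5, the cadherin of endothelial junctions, had 7.98, 7.47 and 11.2 FPKM at 11 weeks, against 3.77, 3.03 and 5.42 FPKM at 7 weeks (log2 difference 1.12, standard error 0.26, adjusted p = 0.0117), and its call was lost without the 11-week library 4 or the 7-week library 3. SOX18, an endothelial transcription factor and the most abundant of the list, had 56.9, 33.98 and 66.1 FPKM at 11 weeks, against 46.5, 46.5 and 59.9 FPKM at 7 weeks (log2 difference -0.01, adjusted p = 0.986). The 5 endothelial markers listed summed to 28.73 to 43.98 FPKM at 11 weeks, against 14.67 to 24.26 FPKM at 7 weeks. The 5 rises came to 1 without the 11-week library 4 and to 2 without the 7-week library 1 or the 7-week library 3. Of 30 immune genes, 4 rose and 2 fell, against 20.0% and 2.59% of all genes, with a median of 0.36. With the trend removed 0 rose and 1 fell. C3, the central complement protein, had 7.44, 6.01 and 8.18 FPKM at 11 weeks, against 1.82, 0.876 and 2.78 FPKM at 7 weeks (log2 difference 2.05, standard error 0.39, adjusted p = 0.00678), and CCL4, a chemokine, had 0.916, 0.443 and 0.745 FPKM at 11 weeks, against 2.98, 1.76 and 1.91 FPKM at 7 weeks (log2 difference -1.54, standard error 0.39, adjusted p = 0.0158), a call lost without the 7-week library 1. The 5 leukocyte markers listed summed to 18.84 to 36.25 FPKM at 11 weeks, against 9.642 to 21.92 FPKM at 7 weeks. The immune rises came to 2 without the 11-week library 1, the 7-week library 1 or the 7-week library 3 and to 7 without the 7-week library 4. Of 24 interferon and MHC genes 1 rose and 1 fell, against 20.0% and 2.59% of all genes, with a median of -0.21. With the trend removed 0 rose and 0 fell, against 6.55% and 2.70%. The 1 rise came to 4 without the 7-week library 4. Red blood cell genes were present, with HBA1 at 16.3, 19.4 and 94.1 FPKM at 11 weeks, against 36.3, 82.2 and 59.02 FPKM at 7 weeks, with the ages overlapping.

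Growth factor and hormone genes included 1 gene that fell far, IGFBP5. This protein, which binds insulin-like growth factors, is encoded on chromosome 7 from 23232312 to 23248990 of GRCg6a. The gene had 46.3, 28.99 and 51.1 FPKM at 11 weeks, against 159.7, 203.4 and 164 FPKM at 7 weeks (log2 difference -2.09, standard error 0.22, adjusted p = 0.00287), and its log2 difference was -2.10 with the trend removed. IGFBP2, another binding protein, had 143, 129 and 114 FPKM at 11 weeks, against 202.5, 206 and 196 FPKM at 7 weeks and did not pass the fold threshold (log2 difference -0.65). GHR, the growth hormone receptor, had 8.91, 14.5 and 10.1 FPKM at 11 weeks, against 2.40, 1.69 and 3.47 FPKM at 7 weeks (log2 difference 2.13, standard error 0.30, adjusted p = 0.00344), and NR3C1, the glucocorticoid receptor, had 2.11, 4.16 and 3.70 FPKM at 11 weeks, against 0.434, 0.350 and 0.782 FPKM at 7 weeks (log2 difference 2.47, standard error 0.41, adjusted p = 0.00503). SRD5A1, which reduces testosterone to dihydrotestosterone, had 20.9, 28.4 and 12.7 FPKM at 11 weeks, against 6.66, 3.39 and 8.81 FPKM at 7 weeks (log2 difference 1.73, standard error 0.41, adjusted p = 0.0129). Of 35 genes tested in this group, 9 rose and 1 fell, against 20.0% and 2.59% of all genes. With the trend removed 3 rose and 3 fell, against 6.55% and 2.70%.

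As deposited, metabolic and clock genes rose in shares near the 20.0% of all genes, of which 2.59% fell. With the trend removed 6.55% of all genes rose and 2.70% fell. The rising share of the lipid list was then below that of all genes, and those of the other lists here were above it. HMGCS1, which makes HMG-CoA for cholesterol synthesis, had 19.01, 28.3 and 23.4 FPKM at 11 weeks, against 6.57, 4.36 and 7.95 FPKM at 7 weeks (log2 difference 1.91, standard error 0.25, adjusted p = 0.00321), while FDPS further down the pathway had 70.3, 68.5 and 71.1 FPKM at 11 weeks, against 113, 106 and 108 FPKM at 7 weeks and did not pass the fold threshold (log2 difference -0.64). Of 27 cholesterol genes 4 rose and 1 fell, and with the trend removed 3 rose and 0 fell. Of 30 genes of glycolysis and hypoxia, 6 rose and 0 fell, and with the trend removed 3 rose and 0 fell. EPAS1, an oxygen-regulated transcription factor, had 11.4, 20.3 and 16.3 FPKM at 11 weeks, against 2.82, 1.19 and 3.76 FPKM at 7 weeks (log2 difference 2.68, standard error 0.42, adjusted p = 0.00424), and VEGFA, the vascular growth factor, had 12.5, 14.2 and 15.04 FPKM at 11 weeks, against 5.07, 3.404 and 5.80 FPKM at 7 weeks (log2 difference 1.56, standard error 0.21, adjusted p = 0.00331). GAPDH, an abundant glycolytic enzyme, had 1579, 1569.6 and 1556 FPKM at 11 weeks, against 2169, 2431 and 2153 FPKM at 7 weeks (log2 difference -0.52). Of 26 immediate early and clock genes 6 rose and 0 fell, and with the trend removed 5 rose and 0 fell. CRY2, a repressor of the circadian clock, had 19.7, 29.9 and 21.8 FPKM at 11 weeks, against 6.198, 4.19 and 7.40 FPKM at 7 weeks (log2 difference 2.00, standard error 0.25, adjusted p = 0.003), and FOSL2, an AP-1 subunit, had 8.32, 18.2 and 10.1 FPKM at 11 weeks, against 1.64, 0.678 and 2.38 FPKM at 7 weeks (log2 difference 2.96, standard error 0.47, adjusted p = 0.00447). Of 41 lipid genes 9 rose and 1 fell, and with the trend removed 1 rose and 0 fell. CPT1A, which admits fatty acids to mitochondria, had 4.18, 14.1 and 4.73 FPKM at 11 weeks, against 0.836, 0.415 and 1.34 FPKM at 7 weeks (log2 difference 2.91, standard error 0.56, adjusted p = 0.00697), with the 11-week library 3 far above the rest.

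As deposited, lysosome, cell death and stress genes rose in shares below the 20.0% of all genes, of which 2.59% fell. With the trend removed 6.55% of all genes rose and 2.70% fell, and the rising share of apoptosis and senescence genes was above that. Of 51 lysosome genes 4 rose and 0 fell, and with the trend removed 2 rose and 0 fell. The 4 rises came to 8 without the 7-week library 4. PSAP, the precursor of the saposins, had 97.3, 108 and 138 FPKM at 11 weeks, against 33.5, 18.4 and 45.8 FPKM at 7 weeks (log2 difference 1.89, standard error 0.32, adjusted p = 0.00511), and the membrane protein LAMP2 had 22.3, 26.7 and 26.7 FPKM at 11 weeks, against 9.15, 8.26 and 11.8 FPKM at 7 weeks (log2 difference 1.38, standard error 0.16, adjusted p = 0.00294). Of 38 genes of apoptosis and senescence 6 rose and 1 fell, and with the trend removed 4 rose and 1 fell. FADD, an adaptor of death receptors, had 7.11, 11.5 and 10.5 FPKM at 11 weeks, against 1.55, 1.03 and 2.66 FPKM at 7 weeks (log2 difference 2.47, standard error 0.35, adjusted p = 0.0035). Of 42 heat shock and unfolded protein genes 1 rose and 2 fell, and with the trend removed 0 rose and 1 fell. HSPB1, a small heat shock protein, had 14.2, 9.11 and 15.4 FPKM at 11 weeks, against 31.7, 40.05 and 31.01 FPKM at 7 weeks (log2 difference -1.43, standard error 0.22, adjusted p = 0.00396), and MANF, a protein of the endoplasmic reticulum, had 80.2, 65.3 and 89.6 FPKM at 11 weeks, against 189.7, 235 and 180.0 FPKM at 7 weeks (log2 difference -1.36, standard error 0.15, adjusted p = 0.00287). Of 21 S100 and calcium-binding genes 0 rose and 1 fell, and with the trend removed 0 rose and 0 fell. S100A11 had 528, 519 and 367 FPKM at 11 weeks, against 1108, 1373 and 941 FPKM at 7 weeks (log2 difference -1.28, standard error 0.19, adjusted p = 0.00394), and with the trend removed it was at -0.44 and did not pass.

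Among genes with a symbol whose ages did not overlap, the largest fall was that of R3HDML, on chromosome 20 from 5447808 to 5451704, with 0.318, 0.786 and 1.155 FPKM at 11 weeks, against 3.67, 2.71 and 8.33 FPKM at 7 weeks (log2 difference -2.53, standard error 0.55, adjusted p = 0.00984). RBM8A, a core protein of the exon junction complex, had 36.04, 31.8 and 35.99 FPKM at 11 weeks, against 102, 111 and 93.3 FPKM at 7 weeks (log2 difference -1.55, standard error 0.11, adjusted p = 0.00202), and FMC1, an assembly factor of the mitochondrial ATP synthase, had 8.48, 7.01 and 8.82 FPKM at 11 weeks, against 24.6, 28.1 and 21.1 FPKM at 7 weeks (log2 difference -1.59, standard error 0.15, adjusted p = 0.00287). Both genes had little spread within an age. The largest rises were in genes nearly or wholly absent at 7 weeks. AvBD1, an avian beta-defensin, had 0.504, 9.56 and 1.73 FPKM at 11 weeks and was listed at 0 in all 3 libraries of 7 weeks. LECT2, a chemotactic protein, had 0.715, 12.1 and 2.66 FPKM at 11 weeks, against 0.0673, 0 and 0.0559 FPKM at 7 weeks. In both genes the 11-week library 3 held most of the signal. MAP2K7, a kinase upstream of JNK, had 13.2, 9.80 and 15.1 FPKM at 11 weeks, against 0.934, 0.345 and 1.29 FPKM at 7 weeks (log2 difference 3.87, standard error 0.43, adjusted p = 0.00287), and ATXN1L had 5.89, 10.1 and 6.30 FPKM at 11 weeks, against 0.576, 0.365 and 1.13 FPKM at 7 weeks (log2 difference 3.33, standard error 0.41, adjusted p = 0.003). GATA2, a transcription factor of blood, vessel and skin cells, had 6.54, 7.12 and 7.34 FPKM at 11 weeks, against 1.04, 0.278 and 0.848 FPKM at 7 weeks (log2 difference 3.26, standard error 0.42, adjusted p = 0.00321). The ages did not overlap in any of these 3 genes, and with the trend removed their log2 differences were at 3.05, 3.18 and 2.38.

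Counts of the groups were also taken with quantile normalization, in which 7.31% of all genes rose and 6.27% fell. In this setting 1 of 63 respiratory genes and 3 of 102 translation genes fell, with medians of -0.60 and -0.46. Of the 15 mitochondrial genome genes 8 rose. Junction genes gave 7 rises and 1 fall, collagens 8 rises and other matrix genes 6. Integrins and laminins gave 5 rises and metalloproteinases 3. WNT genes gave 8 rises and 4 falls, Hedgehog, FGF, Notch and ectodysplasin genes 8 and 2, and BMP and TGF-beta genes 3 and 1. Melanosome genes gave 2 rises and 1 fall, thiol genes 4 and 5, and smooth muscle genes 3 and 5. Endothelial genes gave 0 of either.

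The age change of yellow follicles was set against that of white follicles in 1 fit over all 12 libraries, to ask whether any of it belonged to the yellow colour. Dominant white genotypes also differed between the colours, and between the ages of white birds, so this contrast is not of colour alone. For the difference of the age changes, 0 of 11316 genes passed in limma, and the smallest adjusted p was 0.663. Before adjustment 835 genes had a p under 0.05, where chance alone would give 566. That number came to 1559 without the 11-week library 3, to 1852 without the 7-week library 3 and to 530 without the 7-week library 4. The median half-width of the 95% interval of a gene's difference was 0.544 on the log2 scale, without adjustment for the number of genes. A call needed the adjusted p and a difference of at least 1 in size, so differences well above that half-width could also go undetected. Of the 2266 genes that rose in yellow follicles, 2074 also rose in the fit of the white libraries alone, in which 25.9% of genes rose. Of the 293 that fell, 225 also fell in white follicles, where 5.15% of genes fell. The ages share no library between the colours. Across genes the log2 differences of the colours had a Pearson r of 0.833, as a description, since both carry the gradient of span and level.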

How the data were processed

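RNA of feather follicles was sequenced by the authors, who aligned reads to GRCg6a with TopHat2 and Bowtie2 (2.2.3), counted them with HTSeq (0.6.0) and deposited FPKM per gene for 12 libraries; the program that wrote the FPKM is not given in the sources used here. Locus starts in the deposited table count from 0, and 1 was added. Log2(FPKM + 0.1) of the 6 yellow libraries was fitted with limma 3.58.1 (R 4.3.3; eBayes with trend, Benjamini-Hochberg adjustment) where the mean FPKM reached 1, with the study's thresholds. A fold change on this scale understates the change of low genes. DEGseq, the study's own test, takes read counts and was not run. The difference between colours was fitted on all 12 libraries. The fit of the yellow libraries was tested on simulated data with independent noise, no gradient of span and a lower fold threshold. The fit of the difference between colours was not tested in this way.

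Gene groups are hand-made lists of symbols, described by counts and medians. The members, lists and thresholds were chosen with earlier results of these data known. Named genes are the 12 largest rises and falls among called genes with a symbol and no overlap of ages, up to 4 called and the 2 most abundant members of each list, pigment genes, cell type markers and the 5 genes with most FPKM; GPX4 was named after its values were seen. A gene that this rule takes is not reported here. Alternatives were other pseudocounts, filters, scalings, the spread model, the replicate block, the threshold and leaving out each library. The trend removal smoothed each library's deviations from the gene means over log2 span and level with loess (span 0.3). No sequence is printed.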

Additional observations from a re-analysis of the deposited data

How the results depend on the processing

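The 2266 rising genes came to 881 with a mean FPKM of at least 5 (which tests 7429 genes), 1433 with median-of-ratios scaling, 827 with quantile normalization, 4134 by the adjusted p alone and 741 with the span and level trend removed, of which 689 were among the 2266. The 293 falling genes came to 939, 709 and 1539 with median-of-ratios scaling, quantile normalization and the adjusted p alone, and to 306 with the trend removed, of which 76 were among the 293. Pseudocounts of 1 and 0.01, no filter, equal sums without the genes of at least 500 FPKM, eBayes without trend and all 12 libraries in the fit kept both counts within 1.5 times. Leaving out 1 yellow library gave 1584 to 2519 rising and 192 to 363 falling genes, the lowest of both without the 7-week library 3. The difference between colours gave 0 genes under the other scalings, pseudocounts, filters, spread model, replicate block and threshold, and 0 to 1 when a yellow library was left out, the 1 without the 11-week library 3.

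In a fit with a replicate block for bird number, 2051 genes rose and 313 fell. Same-numbered libraries of both ages deviated from their group means with correlations across genes of 0.241, 0.079 and 0.132, and every library correlated best with its own number. The Dominant white genotype of each number was also the same at both ages. Because not every pair was above 0.1, the main fit used no pairing. Whether a number marks 1 bird at both ages is not settled by this. If it does, the main p-values treat repeated samples of a bird as independent.

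Relative to all genes, the medians of some lists changed sign. With the trend removed the alpha-keratins came to 0.16, cornification to 0.048, HOX to 0.36, red blood cell genes to 0.036 and heat shock genes to 0.18. With quantile normalization heat shock genes came to 0.15, and with a mean FPKM of at least 5 to 0.035 and melanosome genes to -0.0791. Cornification ranged between -0.49 and 0.030 when 1 library was left out, the highest without the 11-week library 4. Of the named genes, CENPE (-0.11), IDUA (-0.32), PTPRC (-0.14) and VWF (-0.084) changed sign with the trend removed and lost their call. A further 77 named genes lost their call in that setting without a change of sign. With quantile normalization 62 named genes lost their call. The cause was not tested. Precision is limited by 3 libraries per age: the median half-width of the 95% interval of a gene's age change was 0.471 on the log2 scale.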

Other observations

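Loci without a symbol in the keratin-rich stretch of chromosome 25 were listed at 0 in some libraries and at high FPKM in others. ENSGALG00000041483, on chromosome 25 from 2226898 to 2227559 of GRCg6a, had 21881.5, 16472.5 and 10759.8 FPKM in the yellow libraries of 11 weeks and was listed at 0 in the 3 yellow libraries of 7 weeks. White follicles had 25114.3, 14964 and 19273 FPKM at 11 weeks and were listed at 0 at 7 weeks. ENSGALG00000040622 had 6514.71, 5076.17 and 3265.16 FPKM in yellow follicles at 11 weeks and was listed at 0 at 7 weeks, while in white follicles 1 library of 7 weeks had 1861.25 FPKM and the other two were listed at 0. ENSGALG00000034308 had 5351.72, 7257.15 and 2838.15 FPKM in yellow follicles at 11 weeks and was listed at 0 at 7 weeks, while 1 white library of 7 weeks had 9680.39 FPKM. The 12 loci between 2213791 and 2235363, which include these, summed to 88300, 83170 and 46740 FPKM in yellow follicles at 11 weeks, against 113500, 141200 and 94370 FPKM at 7 weeks, so that their sum was lower at 11 weeks while these members appeared. No fold change is given against a group listed at 0.

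The 11-week library 4 stood apart from the other yellow libraries of its age at other keratin-rich loci too. The 11 loci around F-KER, on chromosome 25 from 2150063 to 2193954, summed to 3901, 7588 and 107.5 FPKM at 11 weeks, against 343.1, 239.7 and 194.9 FPKM at 7 weeks. The 7 loci from 2236545 to 2256808 were listed at 0 in the 11-week libraries 1 and 3 and in all yellow libraries of 7 weeks, and summed to 5741 FPKM in library 4. White follicles had 0, 7497 and 6936 FPKM there at 11 weeks and were listed at 0 at 7 weeks.

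Other genes varied as widely within an age. EDMTF1, of the epidermal differentiation complex, had 1.60, 2834 and 2.58 FPKM at 11 weeks, against 7.59, 4775 and 1.25 FPKM at 7 weeks, so that it was high in library 3 at both ages. ENSGALG00000051870, a locus of 174 bases on chromosome 33, had 30589.3, 25390.3 and 34794.6 FPKM at 11 weeks, against 38.1824, 20359.8 and 0 FPKM at 7 weeks (adjusted p = 0.0745 from limma). ENSGALG00000050691 was the 1 gene past both thresholds for the difference between colours when the 11-week library 3 was left out. It had 13.5, 0 and 11.7 FPKM in yellow follicles at 11 weeks and was listed at 0 in the 9 other libraries.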
